A study of Mus musculus with 60 samples.

Results

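Hepatocytes taken at 0 h from the sons of nicotine-exposed (NIC) and control (TA) fathers were compared in 10 RNA-Seq libraries, 5 NIC and 5 TA, out of 60 libraries in the series. The libraries were chosen by their labels alone, as those of the time course with a culture time of 0 h, and each came from a different animal. NIC animals are numbered 11 to 15 and TA animals 1 to 5. NIC fathers drank nicotine and TA fathers drank a tartaric acid solution, both before mating with untreated females, so the sons themselves were drug-naive. All animals were C57BL/6J males aged 8 weeks, 1 per litter. Their livers were perfused with collagenase, the hepatocytes were left to adhere for 3 h, loose cells were washed off, and at 0 h fresh medium was added and RNA was taken. Dexamethasone, a synthetic glucocorticoid, was in the medium of both groups, at 0.1 mM by the labels, while the methods text gives the same number in µM, so the dose is uncertain. What was compared is therefore the state of the plated cells of both groups after the 3 h of adherence, with no drug given to the sons. The library titles carry 2 calendar dates, called A and B here. Date A holds 3 animals per group (NIC animals 11 to 13 and TA animals 1 to 3) and date B holds 2 per group (NIC animals 14 and 15 and TA animals 4 and 5). What was done on these dates is not given in the sources used here.

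Hepatocytes clear foreign small molecules in steps. Cytochromes P450, fed with electrons by the reductase Por, oxidise them. Transferases then attach sulfate, glucuronic acid, glutathione or methyl groups, and transporters move substrates and products across the membrane. Nicotine itself is oxidised in mice mainly by Cyp2a5. This work is not shared evenly across the liver lobule, since hepatocytes around the central vein hold most of the drug-metabolising P450s, and those around the portal vein hold most of the urea cycle and gluconeogenesis. Nuclear receptors such as PXR (Nr1i2), CAR (Nr1i3) and LXR alpha (Nr1h3) set the level of many of these genes, and the circadian clock makes many of them rise and fall over the day.

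The values are TPM, a measure of transcript level scaled to gene length that sums to the same total in every library, so they give shares of the RNA and not amounts per cell. In such bulk RNA, fewer cells of a type and less RNA per cell cannot be told apart. The libraries were shallow, with 1403784 to 2275237 reads in NIC and 672762 to 1806148 reads in TA libraries, and 11779 to 13585 genes above 0 in NIC against 11426 to 12509 in TA. TA animal 1 was the shallowest and stood apart, with a median correlation of 0.922 with the other libraries against 0.933 to 0.961 for each of the rest. In it 22.7% of detected genes rested on 1 read, against 18.7% in NIC animal 11 and 9.06% to 11.1% in the others. These libraries also held the most genes above 0 of their groups, 12509 in TA animal 1 and 13585 in NIC animal 11. The hepatocyte label held in every library, with albumin (Alb) at 77026 to 116630 TPM in NIC and 87560 to 126130 TPM in TA libraries. Summed markers of other liver cells were low and overlapped between the groups, with Kupffer cell markers at 172 to 403 TPM in NIC and 178 to 307 TPM in TA, sinusoidal endothelial markers at 130 to 272 TPM in NIC and 179 to 266 TPM in TA, and biliary markers at 15.4 to 111 TPM in NIC and 13.6 to 80.2 TPM in TA. The erythroid marker Hbb-bs was at 0 in all 10 libraries, and the neutrophil marker S100a8 was at 0 in all but NIC animal 13 and TA animal 5. NIC animal 13 held the highest Kupffer, biliary and neutrophil marker sums, the last at 1129 TPM against 39.1 to 334 TPM in the other NIC animals and 74.9 to 471 TPM in TA animals. In that animal S100a8 was at 12.6 TPM and the biliary marker Krt19 at 0. Other listed members thus made up most of its neutrophil and biliary sums.

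No gene differed between NIC and TA hepatocytes at 0 h once all tests were accounted for. Of 10245 genes tested with limma, with date as a term, 0 passed a Benjamini-Hochberg adjusted p of 0.05 (0.0% of those tested), and the smallest adjusted p was 0.540. The genes with the smallest p in the higher direction included Cyp1a2, Por, Cyp2a5, Nnmt and Sult1d1, enzymes of drug metabolism, and those in the lower direction included Cldn1, Txnip and Irf7. At an unadjusted p under 0.05, 298 genes were higher in NIC (2.91%) and 155 were lower (1.51%), 453 in all (4.42%). With no difference at all, about 1 in 20 genes would be at such a p, so the total was no larger than that. The log2 difference was above 0 for 54.5% of genes, with a median of 0.03. When the values were rescaled by median ratio size factors, the split became 261 higher and 220 lower, by quantile normalization it was 236 and 212, and with limma-voom on whole reads recovered from the values it was 240 and 232, with 0 genes past the adjusted threshold in each. The counts also moved with single animals, to 502 higher and 290 lower without NIC animal 13 and to 190 higher without NIC animal 12. The excess of higher over lower genes did not hold throughout, with 226 higher and 258 lower without both TA animal 1 and NIC animal 11, the libraries richest in genes of 1 read, and 322 higher and 642 lower on date B alone. All 5 NIC libraries lay above all 5 TA libraries for 46 genes (0.449%), and all 5 lay below for 29 (0.283%). Among 2784 genes with a mean above 25 TPM, the level cut used in the study, 25 lay above and 3 below. An exact permutation test that exchanged fathers within dates has 120 arrangements and cannot go below a 2-sided p of 0.0167. Of the 10245 genes, 97 reached it in the higher and 60 in the lower direction. With no difference, a share of about 0.0167 of all genes would reach it, and both directions together were no larger than that. Every difference given below is thus a measured value that did not pass the test across genes, and log2 differences are of log2(TPM + 1), NIC minus TA, with their standard error (SE) from limma.

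The enzymes that oxidise and conjugate drugs held several of the smallest p-values, all with NIC above TA. Cyp1a2, a target of the aryl hydrocarbon receptor that oxidises caffeine and aromatic amines (chromosome 9, 57676937 to 57683703, minus strand, GRCm38), had 338, 475, 374, 337 and 488 TPM in NIC animals 11 to 15, against 253, 207, 181, 293 and 209 TPM in TA animals 1 to 5. The lowest NIC library was thus above the highest TA library, with a log2 difference of 0.82 ± 0.16 (SE, n = 5 each, limma unadjusted p = 0.000315, exact permutation p = 0.0167). Por, the reductase that passes electrons from NADPH to all microsomal P450s (chromosome 5, 135670033 to 135735326, plus strand), had 249, 287, 244, 196 and 303 TPM in NIC libraries, against 212, 111, 160, 90.6 and 67.9 TPM in TA libraries. Only TA animal 1 reached the NIC range, and the log2 difference was 1.09 ± 0.23 (SE). Cyp2a5 (chromosome 7, 26835305 to 26843548, plus strand) had 903, 1662, 737, 795 and 708 TPM in NIC libraries, against 959, 512, 357, 175 and 126 TPM in TA libraries. Here, too, TA animal 1 alone lay within the NIC range, and TA animals 4 and 5 of date B were lowest, so that the log2 difference of 1.46 ± 0.33 (SE) was 0.89 on date A and 2.33 on date B. Cyp2a5 has near-identical relatives, and how the authors' counting divided reads among them is not given in the sources used here, so its level is uncertain to that extent.

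The conjugating enzymes Sult1d1 and Nnmt had no overlap between the groups. Sult1d1, a cytosolic sulfotransferase (chromosome 5, 87554645 to 87569027, minus strand), had 261, 304, 277, 318 and 254 TPM in NIC libraries, against 227, 195, 133, 95.4 and 156 TPM in TA libraries, a log2 difference of 0.86 ± 0.20 (SE). Nnmt, which methylates nicotinamide and other pyridines with S-adenosylmethionine (chromosome 9, 48591877 to 48605153, minus strand), had 402, 448, 602, 390 and 411 TPM in NIC libraries, against 301, 294, 229, 249 and 310 TPM in TA libraries, a log2 difference of 0.69 ± 0.15 (SE). No NIC library fell within the TA range for either gene. When the spread was taken from the 0, 1 and 3 h libraries of the same animals together, Sult1d1 passed the threshold (limma adjusted p = 0.00973). That fit used 30 libraries of the same 10 animals, with 1 correlation within animals (0.31) taken for all genes. The added libraries are repeats and not further animals. Sult1d1 was the only gene called in any of the alternative fits of this comparison.

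**Figure D1:**
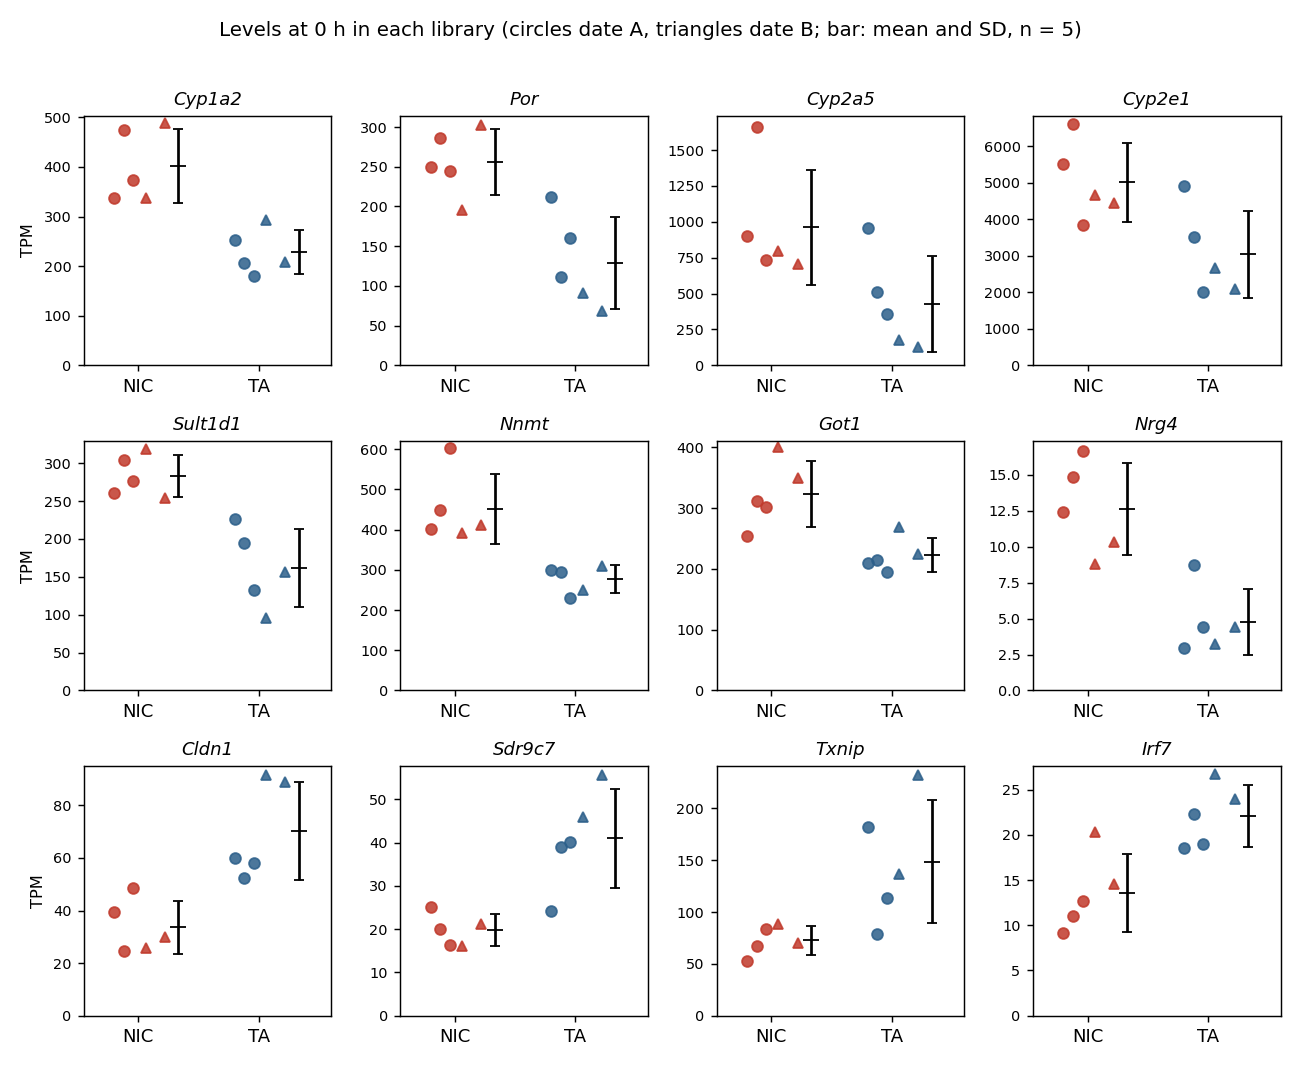
TPM (vertical axis) of 12 genes in each of the 10 libraries at 0 h, NIC left and TA right, with circles for date A, triangles for date B, and bars for the mean ± SD of 5 animals. Cyp1a2, Nnmt and Sult1d1 show no overlap between NIC and TA, while for Por and Cyp2a5 TA animal 1 lies among the NIC animals.

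Read as whole families, the steps of drug clearance leaned the same way to different degrees. Of 37 cytochromes P450 of families 1 to 3 that were tested, 28 were higher in NIC, 10 of them at an unadjusted p under 0.05 and 0 lower at that p, with a median log2 difference of 0.23, and without NIC animal 14 the 10 became 6. Among them were Cyp2e1, which oxidises ethanol and paracetamol, at 5014 ± 1073 TPM in NIC and 3038 ± 1204 TPM in TA (SD, n = 5 each), and Cyp2c40 at 31.3 ± 16.1 TPM in NIC and 14.6 ± 8.15 TPM in TA. Cyp2c genes are a multigene family with similar sequences, so reads may be divided among its members. Of 53 other phase I enzymes, 35 were higher and 7 of these were at p under 0.05, including the flavin monooxygenase Fmo2 (log2 difference 1.06), the carboxylesterase Ces2c (1.01) and the aldo-keto reductase Akr1c14 (0.51). Fmo2 rested on 5 to 35 reads in NIC and 1 to 9 reads in TA libraries. The log2 difference of Ces2c was 1.79 on date A and −0.15 on date B, and its interaction with date did not pass (limma adjusted p = 0.261). Without NIC animal 12 the 7 phase I enzymes became 3, and without TA animal 1 the median of the phase I enzymes was 0.05 in place of 0.13.

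Among the conjugation steps, all 7 sulfotransferases tested were higher in NIC, with a median of 0.32 and 2 at p under 0.05, Sult1d1 and Sult1b1 (0.82). Of 21 glutathione S-transferases, 16 were higher, with a median of 0.19 and 1 at p under 0.05, Gstm3 (0.63). Of 15 UDP-glucuronosyltransferases, 10 were higher, with a median of 0.14 that was −0.02 on date A (6 of 15 higher) and 0.38 on date B (11 of 15), and 1 at p under 0.05, the bilirubin-conjugating Ugt1a1, at 123.2 ± 20.3 TPM in NIC and 93.6 ± 18.7 TPM in TA. The uptake transporters gave 12 of 14 higher with a median of 0.21, led by the organic anion carrier Slco1a4 (0.92), though the median was 0.08 without TA animal 1 and −0.03 on date B, and the efflux transporters gave 9 of 11 with a median of 0.18 and 0 at p under 0.05. Over all genes 54.5% were positive, 2.91% were at p under 0.05 in this direction and the median was 0.03, so the share of higher members was above that of all genes in each of these families. In the other conjugation enzymes, which include Nnmt, it was not, with 7 of 13 higher, a median of 0.13 and, on date B, 6 higher and a median of −0.02. Single members at p under 0.05 were few outside the P450s and phase I enzymes.

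The list of xenobiotic and metabolic nuclear receptors, taken as a whole, did not keep 1 direction over both dates. Of 26 tested, 15 were higher in NIC, with a median of 0.09, which was 0.26 on date A (21 higher) and −0.06 on date B (11 higher). At p under 0.05 the lipid receptor Pparg (0.83) was the 1 higher and the thyroid hormone receptor Thra (−0.71) the 1 lower. Both were at low levels, Pparg at no more than 7.87 TPM and Thra at no more than 6.86 TPM in any library. PXR (Nr1i2) had 55.0 ± 9.67 TPM in NIC and 42.7 ± 6.49 TPM in TA (SD), a log2 difference of 0.35 ± 0.17 (SE). Its difference was 0.40 on date A and 0.28 on date B, higher in NIC on both. CAR (Nr1i3) had 0.60 ± 0.32 and LXR alpha (Nr1h3) 0.34 ± 0.17 (log2 difference ± SE), and none of these 3 was at p under 0.05. The genes that the study itself names for hepatocytes, 11 in all, were all higher in NIC with 5 at p under 0.05, but they were chosen with these libraries in view and their direction is no separate evidence.

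Genes of the pericentral zone had 1 direction throughout in the fit over both dates. This list shares members with the P450 list above, among them Cyp1a2, Cyp2a5 and Cyp2e1, so their counts are not separate. All 27 tested members were higher in NIC at 0 h, with log2 differences between 0.10 and 1.46 and a median of 0.40. At p under 0.05 were 8, and 1, Cyp1a2, separated the groups. Among all genes tested, 2.91% were higher at that p and 0.449% had all NIC above all TA libraries. Gulo, the last enzyme of vitamin C synthesis, had 229 ± 30.5 TPM in NIC and 147 ± 49.6 TPM in TA, and Cyp27a1, a mitochondrial enzyme of bile acid synthesis, differed by 0.24 ± 0.11 (SE). On date A all 27 were higher, with a median of 0.53, and on date B 22 were, with a median of 0.32. The number at p under 0.05 depended on single animals, with 15 when TA animal 1 was left out (median 0.56, 25 of 26 higher) and 5 when TA animal 3 was left out (median 0.29). TA animal 1 had the highest pericentral sum of the TA libraries and was also the shallowest, and the part of its depth in these counts was not tested. The summed level of the list was 20412 to 29110 TPM in NIC and 13283 to 20982 TPM in TA libraries, which overlap. The 29 periportal genes tested gave 14 higher, a median of −0.02, 4 higher at p under 0.05 and 1 lower, so higher and lower members were about as many in that zone. Of 28 listed genes known to be higher in female than in male liver, several of them P450s, 12 were tested. Among these 12, 9 were higher in NIC, with a median of 0.36 and 3 at p under 0.05. The 24 genes known to be higher in male liver gave 10 higher in NIC, with a median of −0.04, and 0 higher and 2 lower at that p. Whether zones differ was not tested, because members of a list are not replicates.

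**Figure D2:**
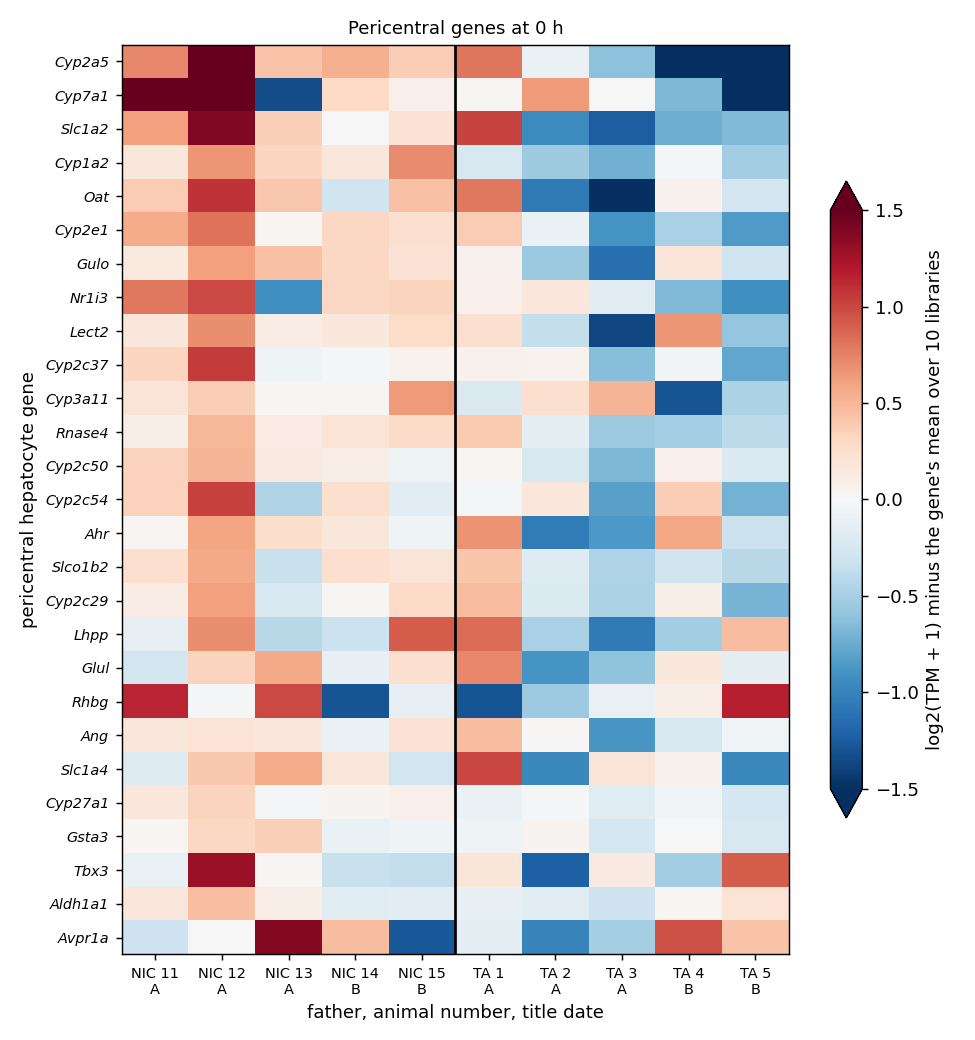
Log2(TPM + 1) of the 27 tested pericentral genes (rows) in the 10 libraries (columns, NIC left, TA right), as the difference from each gene's mean over the libraries. NIC animal 12 is above the mean for most genes, TA animals 3 and 5 are below it for most genes, and TA animal 1 is closer to the NIC columns for several genes such as Cyp2a5 and Cyp2e1.

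Genes of lipid and amino acid metabolism were also among the higher ones with the smallest p. Lpin1, a phosphatidate phosphatase and transcriptional coactivator, had 282, 181, 175, 359 and 225 TPM in NIC libraries, against 67.2, 181, 152, 120 and 90.9 TPM in TA libraries, a log2 difference of 1.03 ± 0.28 (SE). Gpcpd1, which splits glycerophosphocholine, had 93.2, 118, 77.4, 217 and 101 TPM in NIC libraries, against 59.7, 59.4, 73.2, 40.9 and 31.5 TPM in TA libraries. The groups did not overlap for Gpcpd1, NIC animal 14 was the highest by far, and the log2 difference was 0.56 on date A and 2.01 on date B. Of 32 genes of fatty acid and triglyceride synthesis and LXR targets, 20 were higher, with a median of 0.10. At p under 0.05 were 5 of them, against 2.91% of all genes in this direction. The median was 0.05 without TA animal 1 and 0.23 without TA animal 3. Among the 5 were Agpat6, a glycerol-3-phosphate acyltransferase (0.55), the desaturase Fads2 (0.56) and Thrsp, a regulator of lipogenesis (0.97), all given as log2 differences.

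Of 69 genes of amino acid breakdown and the urea cycle, 56 were higher, with a median of 0.13, and 10 were at p under 0.05. The shares of all genes tested were 54.5% higher and 2.91% higher at p under 0.05. Got1, the cytosolic aspartate aminotransferase, had 254, 312, 302, 401 and 350 TPM in NIC libraries, against 209, 214, 195, 269 and 225 TPM in TA libraries, a log2 difference of 0.53 ± 0.12 (SE). Only TA animal 4 was within the NIC range for Got1. Tat, which starts tyrosine breakdown (0.46), and Prodh, which starts proline breakdown (0.58), were also at p under 0.05. This list was not uniform across dates, with 62 higher and a median of 0.25 on date A, against 32 higher and a median of −0.04 on date B, and without NIC animal 12 the 10 became 6. The 22 glucocorticoid receptor targets, read here because dexamethasone was in the medium of both groups, gave 14 higher with a median of 0.16 and 5 at p under 0.05 (3 without TA animal 1 and 8 without NIC animal 13), among them Lpin1, given above, and Fkbp5, which binds the receptor and damps it, at 45.8 ± 17.25 TPM in NIC and 22.3 ± 7.09 TPM in TA (log2 difference 1.00 ± 0.30, SE). The 25 cholesterol synthesis genes had a median of 0.11 that hid opposite signs, 0.49 with 23 higher on date A and −0.36 with 5 higher on date B, and leaving out TA animal 1 turned it to −0.15.

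**Figure D3:**
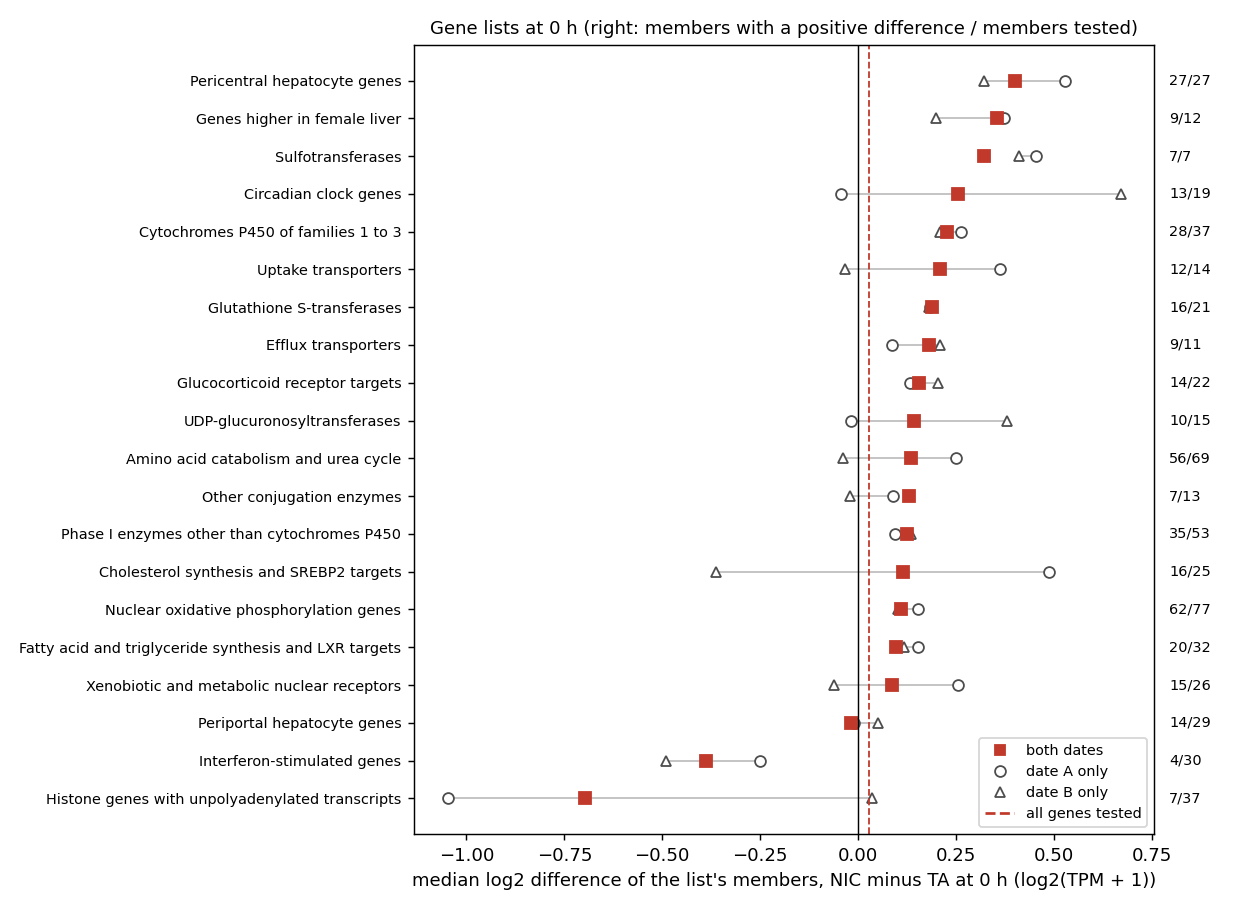
Median log2 difference, NIC minus TA (horizontal axis), of each described gene list over both dates and on dates A and B alone, with the number of positive members over the number tested beside each list, and a dashed line at the median of all genes tested. Pericentral genes lie to the right on both dates, interferon-stimulated genes to the left on both dates, and the medians of the cholesterol, clock and histone lists differ widely between dates.

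Mitochondrial genes leaned to NIC by small amounts. Of 77 nuclear genes of oxidative phosphorylation, 62 were higher in NIC with a median of 0.11, and 4 were at p under 0.05 (9 without NIC animal 13). For 4, Atp5b, Atp5h, Ndufa9 and Atpif1, all NIC libraries lay above all TA libraries. Over all genes tested, 54.5% were higher, 2.91% were higher at p under 0.05 and 0.449% had all NIC above all TA libraries. Atp5h, a subunit of the ATP synthase stalk, had 589 ± 89.5 TPM in NIC and 457 ± 22.9 TPM in TA (SD). Timm8a1, a chaperone for import into the inner membrane, had 76.4 ± 11.02 TPM in NIC and 50.4 ± 10.6 TPM in TA, with no overlap.

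Several of the smallest p-values among higher genes came from few reads. Nrg4, a secreted ligand of the ErbB4 receptor (chromosome 9, 55220222 to 55326844, minus strand), had 12.4, 14.8, 16.6, 8.81 and 10.3 TPM in NIC libraries, against 2.98, 8.73, 4.42, 3.22 and 4.44 TPM in TA libraries, from 17 to 32 reads in NIC and 2 to 13 reads in TA. The groups did not overlap, with a log2 difference of 1.29 ± 0.25 (SE), although NIC animal 14 and TA animal 2 were nearly level. Tarbp2, a partner of Dicer, rested on 8 to 16 reads in NIC and 1 to 6 in TA libraries, and Ndufaf3, an assembly factor of complex I, on 6 to 16 in NIC and 1 to 5 in TA. Atpif1, the inhibitor of the mitochondrial ATP synthase, rested on 13 to 30 reads in NIC and 4 to 10 in TA. The co-chaperone Hscb was detected in 4 NIC animals at 2.36 to 4.46 TPM and in 0 TA animals, from at most 4 reads, and Rps27 rested on at most 3 reads.

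Of the genes lower in NIC with the smallest p, most were at low levels. Cldn1, a tight junction protein (chromosome 16, 26356642 to 26371841, minus strand), was the most abundant of those that separated the groups completely among the 12 smallest p-values, with 39.4, 24.7, 48.6, 25.8 and 29.8 TPM in NIC libraries, against 60.1, 52.6, 58.0, 91.6 and 89.0 TPM in TA libraries. Its log2 difference was −1.05 ± 0.23 (SE), with −0.64 on date A and −1.67 on date B. Gpihbp1, which anchors lipoprotein lipase on capillaries and is not a hepatocyte gene, had 4.17 ± 0.814 TPM in NIC and 8.995 ± 2.29 TPM in TA (SD) from at most 7 reads in a library. Txnip, an inhibitor of thioredoxin, had 72.5 ± 14.03 TPM in NIC and 149 ± 59.8 TPM in TA, with TA animal 2 within the NIC range. The short-chain dehydrogenase Sdr9c7 had 19.8 ± 3.69 TPM in NIC and 40.97 ± 11.5 TPM in TA. Among genes above a mean of 25 TPM, Sgpl1, the lyase that degrades sphingosine 1-phosphate, differed by −0.63 and the Golgi protein Tgoln1 by −0.48, with all NIC libraries below all TA libraries for Tgoln1. For Igflr1, Zfp385a, Loxl4 and Hddc2, NIC libraries held 0 to 3 reads each.

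Interferon-stimulated genes, which cells switch on in response to virus and interferon, were mostly lower in NIC on both dates. Of 30 tested, 26 were lower in NIC, with a median of −0.39, 4 lower at p under 0.05 and 0 higher. Over all genes, 1.51% were lower at that p. Irf7, a master regulator of type I interferon, had 9.09, 11.1, 12.6, 20.3 and 14.5 TPM in NIC libraries, against 18.6, 22.3, 19.0, 26.7 and 24.0 TPM in TA libraries, with NIC animal 14 alone inside the TA range. Irf1 had 55.1 ± 28.7 TPM in NIC and 85.4 ± 24.5 TPM in TA, the interferon-inducible GTPase Iigp1 333 ± 43.55 TPM in NIC and 477 ± 129 TPM in TA, and Stat2, which carries the type I interferon signal to the nucleus, differed by −0.53. The median was −0.25 on date A and −0.49 on date B. Without NIC animal 13, 11 members were lower at p under 0.05 and the median was −0.57, and without TA animal 4 they were 3 and −0.23. Markers of other liver cells moved in the same direction on date B, with sinusoidal endothelial markers at a median of −0.61 (0.18 on date A, 3 of 20 higher over both dates) and Kupffer cell markers at −0.42 (0.15 on date A, 7 of 17 higher over both dates). Their part in the interferon-stimulated genes was not tested.

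Replication-dependent histone genes, whose transcripts carry no poly(A) tail, had lower values in NIC on date A. Of 37 tested, 30 were lower, with a median of −0.70 and 7 at p under 0.05, against 1.51% of all genes in this direction. The median was −1.05 on date A and 0.04 on date B. Hist1h1d, a linker histone, had 9.98 ± 5.17 TPM in NIC and 28.05 ± 6.75 TPM in TA (SD) with no overlap, and Hist1h2bb rested on at most 1 read in a NIC library and 1 to 4 in a TA library. The summed level was 514 to 834 TPM in NIC and 819 to 1764 TPM in TA, with TA animal 1, the library richest in genes of 1 read, at the top. Without it the median was −0.48, and without TA animal 4 the 7 became 12. The part of that library's depth in the result was not tested. Histone genes are near-identical copies, so single members are uncertain.

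The difference between NIC and TA depended on the date for a small number of genes, and this was the test that did pass. The interaction of father and date reached an adjusted p under 0.05 in limma for 4 genes (0.039%), while 745 were at an unadjusted p under 0.05 (7.27%). Bhmt, which remethylates homocysteine with betaine (chromosome 13, 93616675 to 93637961, minus strand), had 2530, 3230, 2904, 1997 and 1549 TPM in NIC libraries, against 834, 1338, 1259, 6451 and 6335 TPM in TA libraries. TA animals were thus below NIC on date A and far above them on date B, an interaction of −3.22 ± 0.30 (log2, SE, limma adjusted p = 0.00339). Elovl3, an elongase of very long chain fatty acids (chromosome 19, 46131897 to 46135694, plus strand), had 59.7, 73.6, 164, 26.6 and 63.7 TPM in NIC libraries, against 41.2, 17.2, 24.6, 612 and 586 TPM in TA libraries, an interaction of −5.58 ± 0.67 (limma adjusted p = 0.0146). Hsd3b7, an enzyme of bile acid synthesis, was level in NIC, from 140 to 147 TPM, against 101, 114, 109, 384 and 318 TPM in TA libraries, an interaction of −1.68 ± 0.24 (limma adjusted p = 0.0464). Lsm7, a member of the Sm-like ring that binds U6 RNA, passed as well (−4.45) but from 0 to 13 reads a library. For all 4, TA animals 4 and 5 lay above the other 8 libraries. The number that passed was 1 without TA animal 4 or without NIC animal 14, and 2 without TA animal 3.

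TA animals 4 and 5 also stood apart in the circadian clock. In this feedback loop Arntl with Clock or Npas2 binds E-boxes in promoters and switches on the Per and Cry repressors, Ciart, and output factors such as Dbp and Tef. Of 19 genes tested from the clock list, 2 (Arntl and Nr1d1) were above all other 8 libraries in TA animals 4 and 5. Another 7 (Ciart, Cry2, Per1, Per2, Per3, Tef and Tspan4) were below them, against 6.73% of all genes apart in that pair. Tspan4 is on the list but is not part of the loop described here. NIC animals 14 and 15, of the same date, gave 1 above and 2 below, with 6.04% of all genes apart. Ciart had 5.04, 18.6, 5.31, 25.7 and 17.1 TPM in NIC libraries, against 10.3, 5.57, 7.85, 0.741 and 0 TPM in TA libraries. Per2 had 11.1, 18.5, 10.1, 8.25 and 9.11 TPM in NIC libraries, against 13.8, 14.6, 18.1, 1.77 and 1.76 TPM in TA libraries. Arntl, the activator, ran the other way, with 4.85, 4.62, 9.78, 0.651 and 3.56 TPM in NIC libraries, against 4.95, 7.59, 7.55, 13.9 and 15.3 TPM in TA libraries. Tef had 39.9 ± 14.01 TPM in NIC and 25.2 ± 16.1 TPM in TA, with 6.71 and 9.19 TPM in TA animals 4 and 5. Over both dates 13 of 19 clock genes were higher in NIC, with 2 higher (Ciart and Cry2) and 1 lower (Arntl) at an unadjusted p under 0.05 in limma, and 7 and 3 without NIC animal 13. On date A the clock list had a median log2 difference of −0.04 with 9 of 19 higher, and on date B it was 0.67 with 12 higher. None of these clock genes passed the adjusted interaction test, in which Ciart had an adjusted p of 0.198 by limma. With 2 animals per group on date B, a difference of fathers and a difference of those animals cannot be told apart, and the part of the clock genes in the differences of other genes was not tested.

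The E-box that Arntl binds, CACGTG, which is its own reverse complement so that both strands read alike, was looked for in the 250 bases before each RefSeq start site (GRCm38.p6). It was found in 6.02% of 32851 promoters, and 3 or more copies in 0.0609%. Of 15 clock genes with a promoter entry, 6 held it in at least 1 promoter. These genes had 21 promoters together, so that count is by gene, while the shares above are by promoter. Shown as examples, with the E-box in capitals, are Ciart, at chr3:95882229-95882478 on the minus strand, and the start sites of Tef, at chr15:81802423-81802672 and chr15:81811164-81811413 on the plus strand. Both genes were below all other libraries in TA animals 4 and 5. So were Per1 and Tspan4, which held 1 copy each and are not shown. Cry2, Per2 and Per3, also below, were not among those found to hold it. Cry1 and Bhlhe41 held it but were not below. Whether the E-box goes with the low genes was not tested. Ciart held 3 copies and each Tef window held 1, which describes these letters and says nothing of binding in these cells.
Ciart: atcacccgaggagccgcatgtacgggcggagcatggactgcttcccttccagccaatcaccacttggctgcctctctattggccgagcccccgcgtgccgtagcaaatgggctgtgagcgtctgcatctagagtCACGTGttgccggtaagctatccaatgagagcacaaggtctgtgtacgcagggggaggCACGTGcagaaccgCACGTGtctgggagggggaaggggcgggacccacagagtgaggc
Tef, first start site: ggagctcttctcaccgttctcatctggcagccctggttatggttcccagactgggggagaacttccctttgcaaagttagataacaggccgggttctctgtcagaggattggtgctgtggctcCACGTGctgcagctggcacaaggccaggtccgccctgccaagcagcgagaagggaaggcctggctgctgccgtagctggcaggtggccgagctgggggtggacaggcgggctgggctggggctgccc
Tef, second start site: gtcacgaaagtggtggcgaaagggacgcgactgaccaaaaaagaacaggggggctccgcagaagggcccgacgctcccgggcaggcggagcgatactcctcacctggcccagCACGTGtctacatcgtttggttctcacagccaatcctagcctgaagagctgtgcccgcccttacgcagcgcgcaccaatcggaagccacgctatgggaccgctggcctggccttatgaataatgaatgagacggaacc

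**Figure D4:**
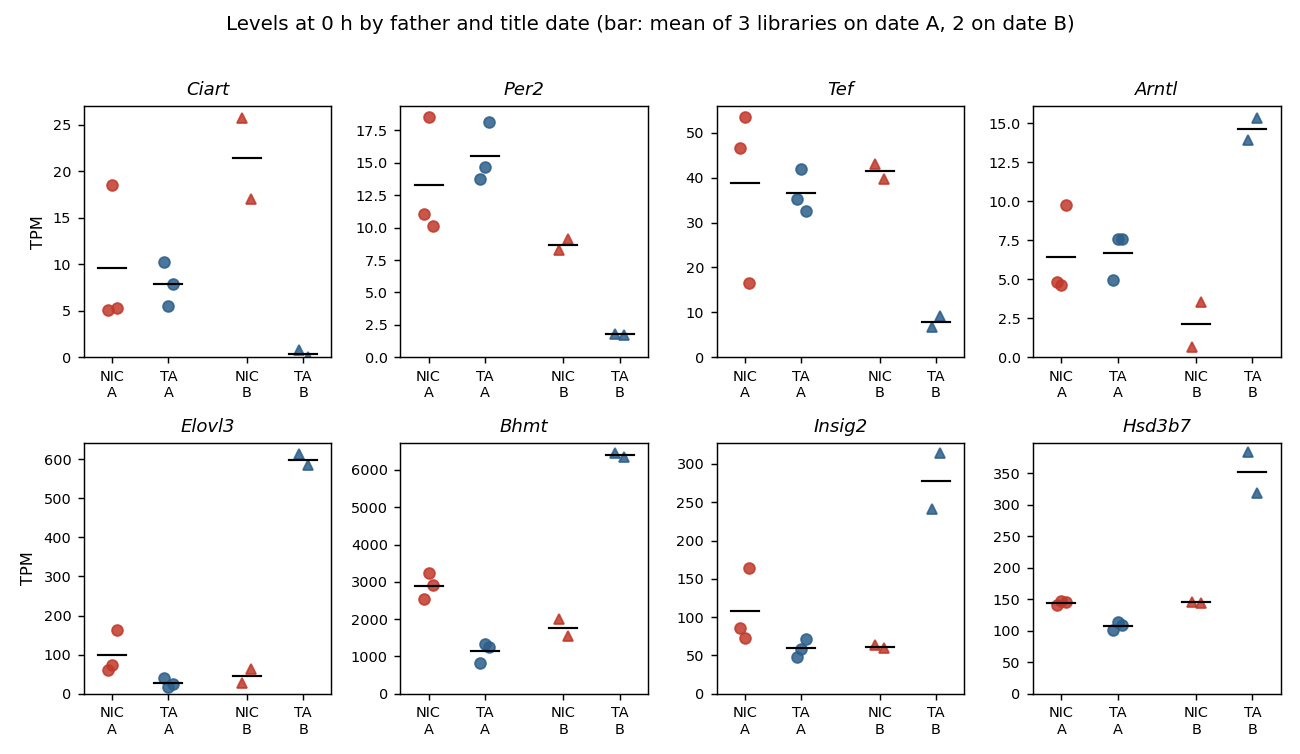
TPM (vertical axis) of Ciart, Per2, Tef, Arntl, Elovl3, Bhmt, Insig2 and Hsd3b7 by father and date, NIC left of TA within each date, 3 animals per group on date A and 2 on date B. TA animals of date B are low for Ciart, Per2 and Tef and high for Arntl, Elovl3, Bhmt, Insig2 and Hsd3b7, and on date A the groups overlap for the clock genes.

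The same 10 animals were sampled again at 1 h and 3 h, so the later libraries show whether a 0 h difference was still measured in that animal's culture, not whether it recurs in other animals. For several genes with the smallest p at 0 h the log2 differences were of similar size at all times. Cyp1a2 differed by 0.82 at 0 h, 0.85 at 1 h and 0.94 at 3 h, Cyp2a5 by 1.46, 1.54 and 1.39, Sult1d1 by 0.86, 0.71 and 0.72, and Nnmt by 0.69, 0.65 and 0.67. Por differed by 1.09, 1.12 and 0.78, Got1 by 0.53, 0.47 and 0.50, Lpin1 by 1.03, 0.99 and 1.21, and Cldn1 by −1.05, −0.89 and −0.93. The pericentral median was 0.40 at 0 h, 0.39 at 1 h and 0.42 at 3 h, and the interferon median −0.39, −0.32 and −0.38. Other lists were not level, with medians of 0.16, −0.003 and 0.02 for glucocorticoid receptor targets, 0.26, 0.12 and 0.12 for clock genes, −0.70, −0.29 and −0.27 for histone genes, and 0.21, 0.06 and 0.29 for uptake transporters. Ces2c differed by 1.01, 0.58 and 0.65. The low-read genes differed more between times, with Tarbp2 at 1.44, −0.22 and 0.22, Ndufaf3 at 1.18, −0.18 and 0.66, Atpif1 at 0.95, −0.14 and 0.13, and Hist1h2bb at −2.19, 0.17 and −1.25. Nrg4 was at 1.29 at 0 h, 0.97 at 1 h and −0.44 at 3 h. By a limma test of each animal's own difference between times, 0 genes passed the adjusted threshold at 1 h against 0 h (0.0%, with 4.4% at an unadjusted p under 0.05) and 0 at 3 h against 0 h (0.0%, with 7.26% at an unadjusted p under 0.05), so no shift over time passed the test. Without TA animal 2, 1 gene passed at 3 h. The NIC minus TA fits at the later times also called 0 genes each, with 2.35% higher and 1.98% lower at an unadjusted p under 0.05 at 1 h, and 2.3% higher and 5.69% lower at 3 h.

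**Figure D5:**
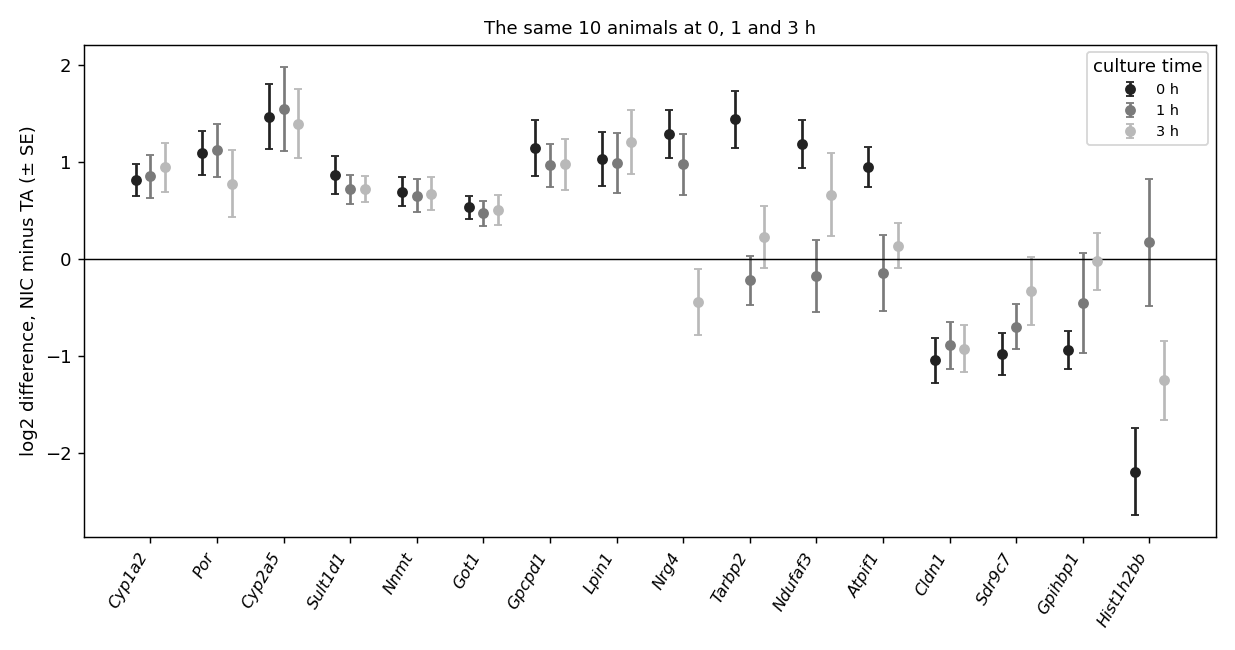
Log2 difference, NIC minus TA, ± SE from limma (vertical axis) of 16 genes at 0, 1 and 3 h in the same 5 NIC and 5 TA animals. Cyp1a2, Nnmt, Got1 and Cldn1 are nearly level over time, while Tarbp2, Atpif1 and Hist1h2bb are near 0 or of the other sign at 1 h.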

How the data were processed

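RNA from 10 hepatocyte cultures at 0 h (5 NIC, 5 TA, with 1 library per animal and animals from separate litters, so p-values measure the spread between animals) was sequenced by the study as rRNA-depleted, strand-specific libraries and aligned with Bowtie2 to mm10. The counting tool and annotation are not given in the sources used here. The deposited table holds gene values in TPM, made by the authors, who used DESeq2 for their own tests. Whole reads behind the values were recovered for 18971 of 18971 genes checked (100%, tolerance 1e-06 of a read). Genes with a mean above 1 TPM over the 10 libraries were tested on log2(TPM + 1) with limma 3.58.1 in R 4.3.3, with date as a term, an intensity trend and Benjamini-Hochberg adjustment. Another fit added the interaction of father and date, and each animal's differences between times were fitted likewise. Named were the 12 genes with the smallest p in each direction, over all genes and above a mean of 25 TPM, up to 4 members of each list, the genes the study names, and, after their values were seen, the clock and date genes. The members and lists were chosen with earlier results of these data known. The 27 rows whose symbols had become dates are not named, and some genes that met the rule are not reported here. Coordinates are of GENCODE M21 (GRCm38) and promoters of RefSeq (GRCm38.p6). The code was tested on simulated data. The alternatives were other pseudocounts, filters, scalings, weights and date handling, and each animal left out, and, chosen after seeing the data, limma-voom on the recovered reads and a fit without TA animal 1 and NIC animal 11.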

Additional observations from a re-analysis of the deposited data

Results flagged for a closer look

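The difference between NIC and TA changed with the date for Bhmt (interaction −3.22, log2, date B minus date A), Elovl3 (−5.58), Hsd3b7 (−1.68) and Lsm7 (−4.45), by the limma interaction test at an adjusted p under 0.05. In each of these genes the pair of TA animals of date B lay above the other libraries.

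A single library lay far from the other 4 of its group for 15 of the 204 groups formed by 102 named genes, where chance alone flags about 1 in 20 groups. In NIC libraries these were animal 12 for Cyp2a5 (1662 TPM) and Per2 (18.5 TPM), animal 13 for Nnmt (602 TPM, highest) and for the clock repressor Nr1d2 (14.3 TPM, lowest), animal 11 for Pparg (7.87 TPM), animal 15 for the urinary protein Mup20 (50802 TPM), and animal 14 for Gpcpd1 (217 TPM), Igflr1 (0.796 TPM) and Hddc2 (3.96 TPM). In TA libraries they were animal 2 for Nrg4 (8.73 TPM), Slco1a4 (73.8 TPM) and Rps27 (2.26 TPM), animal 4 for the sulfotransferase Sult1c2 (4.24 TPM), and animal 1 for the bile acid and drug carrier Slco1b2 (1010.5 TPM) and for Gm2083 (1314 TPM). Gm2083 did not rest on few reads, with 128 to 568 in NIC and 325 to 2411 in TA libraries. It is annotated as Mup13, one of the major urinary proteins, a multigene family whose reads may be divided among its members. The cause of the high value was not tested.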

How the results depend on the processing

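Of 2410 values of 102 named genes of the described lists and the date section, 2385 kept their direction and 25 reversed. On date B alone these were Ces2c (−0.15), Gstm2 (−0.62), Slc10a2 (−0.12), Sult1a1 (−0.10), Bhmt (−1.86) and Lsm7 (−1.49), and on date A alone Abcb11 (0.042), Abcg5 (−0.15), Hsd3b7 (0.42), Elovl3 (1.75), Per2 (−0.25) and Tef (−0.069), as log2 differences. Bhmt also reversed with array weights (−0.00911), with voom (−0.027) and without TA animal 1 and NIC animal 11 (−0.31), and Lsm7 with voom (−0.24). With 1 animal left out, Bhmt ranged between −0.22 and 0.42 and Elovl3 between −1.02 and 0.22. The causes were not tested. The count of genes called at 0 h was 0 in each alternative except the fit that shared the spread with 1 and 3 h, which called 1. At an unadjusted p under 0.05, the NIC higher count was 144 among genes above 25 TPM, where fewer genes were tested, 540 with array weights, and 190 to 502 with 1 animal left out. The NIC lower count was 30 above 25 TPM, 308 with array weights, 90 on date A, 642 on date B, 258 (against 226 higher) without TA animal 1 and NIC animal 11, and 113 to 290 with 1 animal left out. The interaction of father and date called 1 to 6 genes with 1 animal left out. The shift at 3 h against 0 h called 1 gene above 25 TPM and 0 to 1 with 1 animal left out. Of 1052 list medians under alternatives, 23 moved by over 1 SD and 65 had the other sign. No paired analysis was possible because the labels give NIC and TA animals no shared numbers. Depth limits genes of a few reads, such as Hscb, Rps27 and Lsm7.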

Other observations

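Other gene groups are given here by their counts. The glycolysis and pentose phosphate list had 4 of 19 members higher in NIC, with a median log2 difference of −0.14 and 0 at an unadjusted p under 0.05 in limma in either direction. Of 37 proteasome subunits, 30 were higher, with a median of 0.12 (0.28 on date A and −0.04 on date B), and of 75 cytosolic ribosomal protein genes, 60 were higher, with a median of 0.08. Fatty acid oxidation and ketogenesis had 27 of 43 higher and a median of 0.04, and the Nrf2 targets, which respond to oxidative stress, had 7 of 20 higher and a median of −0.06. Of 26 immediate early genes, which respond to handling and stress, 8 were higher, with a median of −0.16. All 4 biliary epithelial markers tested were lower in NIC, with a median of −0.55 (−0.19 on date A and −1.34 on date B), and the acute phase proteins had 13 of 32 higher and a median of −0.11. Structural and nuclear noncoding RNAs had 3 of 10 higher at p under 0.05 (Terc, Snhg5 and Gas5) with a median of 0.03, and enzymes of nucleoside breakdown had 2 of 17 (Dctpp1 and Upp2) with a median of 0.14. Lower at p under 0.05 were 2 of 14 cell cycle genes (Mki67 and Mcm2; median 0.19) and 2 of 17 major urinary proteins (Mup12 and Mup20; median −0.11), a multigene family whose reads may be divided among its members. Over all genes the median was 0.03, and 2.91% were higher and 1.51% lower at p under 0.05.

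The 10 libraries did not separate by father on the first principal component, which held 22.9% of the variance and set TA animal 1 apart, and the second held 17.3%. Of the genes tested, 54.5% had log2 differences of opposite sign on dates A and B.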
